A study of Mus musculus with 6 samples.

Results

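The 10 genes described here belong to the circadian clock and its immediate output: Dbp, Tef, Hlf, Nr1d1, Nr1d2, Per1, Per2, Per3, Cry1 and Clock. They were taken by symbol from a table of 17524 genes measured by bulk RNA sequencing in the trigeminal ganglion, the sensory ganglion of the face and meninges, and all 10 were present and tested. The mice were wild type (WT in the labels), 3 libraries came from animals given vehicle and 3 from animals given NTG. The labels give only that abbreviation; in migraine research it usually denotes nitroglycerin, a donor of nitric oxide. The sources used here give no dose, age, sex, interval between treatment and dissection, or clock hour of tissue collection. Whether each library came from a separate animal is not stated either, so the p-values refer to the spread among the libraries, which may be technical.

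The mammalian clock is a transcriptional feedback loop. CLOCK, paired with BMAL1 (gene symbol Arntl), activates genes that carry E-boxes, among them the Per and Cry genes, whose proteins return to repress that pair. A further loop runs through the REV-ERB receptors encoded by Nr1d1 and Nr1d2, which repress Arntl and other genes at elements that they share with the activating ROR receptors. DBP, TEF and HLF are PAR bZIP transcription factors that bind D-boxes and carry the rhythm to output genes, and NFIL3 represses through the same D-boxes. In most tissues Dbp, Nr1d1, Nr1d2 and the Per genes reach their highest level at a different time of day from Arntl, Npas2 and Nfil3.

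RefSeq promoter windows on GRCm38.p6, from 250 bases before to 50 after a start site, were matched for 9 of the 10 genes (13 windows). The windows of 4 genes are shown as examples, a pair from each direction of change, that hold matches to the short sequences named below. A gene can have several start sites, and the first window by coordinate that held a match is shown. On the values as deposited Nr1d2 and Per3 were higher in NTG, and Per1 and Cry1 were lower. As given below, the calls of Per1 and Cry1 were lost once GC and length trends were removed. Those of Per3 and Cry1 also did not pass without some single libraries. Capitals mark matches on either strand to the E-box CACGTG, its variant CACGTT, the D-box TTANGTAA or the core AGGTCA of the element bound by REV-ERB and ROR receptors.
Nr1d2 (chr14:18239057-18239356, minus strand): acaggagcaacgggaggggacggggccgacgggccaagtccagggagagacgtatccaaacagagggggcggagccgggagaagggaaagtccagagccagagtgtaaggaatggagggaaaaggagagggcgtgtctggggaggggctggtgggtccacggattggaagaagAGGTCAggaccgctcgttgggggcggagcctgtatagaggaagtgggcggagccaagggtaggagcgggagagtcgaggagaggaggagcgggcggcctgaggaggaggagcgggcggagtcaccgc
Per3 (chr4:151044616-151044915, minus strand): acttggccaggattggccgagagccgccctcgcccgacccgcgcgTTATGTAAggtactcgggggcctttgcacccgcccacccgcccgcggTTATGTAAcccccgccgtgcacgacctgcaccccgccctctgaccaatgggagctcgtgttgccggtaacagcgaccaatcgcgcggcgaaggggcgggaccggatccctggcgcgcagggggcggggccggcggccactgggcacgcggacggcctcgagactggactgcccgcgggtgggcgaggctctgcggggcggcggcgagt
Per1 (chr11:69098699-69098998, plus strand): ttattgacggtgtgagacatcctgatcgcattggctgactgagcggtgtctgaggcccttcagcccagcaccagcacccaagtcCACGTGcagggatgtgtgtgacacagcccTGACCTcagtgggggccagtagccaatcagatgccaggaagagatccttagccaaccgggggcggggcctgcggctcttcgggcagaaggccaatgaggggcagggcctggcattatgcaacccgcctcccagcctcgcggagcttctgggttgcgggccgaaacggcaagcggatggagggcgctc
Cry1 (chr10:85185005-85185304, minus strand): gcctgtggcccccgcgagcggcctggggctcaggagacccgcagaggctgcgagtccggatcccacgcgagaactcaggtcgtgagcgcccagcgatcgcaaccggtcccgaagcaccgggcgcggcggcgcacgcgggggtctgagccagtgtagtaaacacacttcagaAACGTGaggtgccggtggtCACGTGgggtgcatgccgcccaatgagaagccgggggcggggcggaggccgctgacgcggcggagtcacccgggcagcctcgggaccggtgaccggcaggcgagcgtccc

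Nr1d2 holds 1 AGGTCA starting 77 bases before the start site. Per3 holds 2 D-box matches, starting 205 and 158 bases before it. Per1 holds an E-box at 166 bases and, on the opposite strand, an AGGTCA at 137 bases before the start site of its window. That window lies inside the span of Per1 (69095108 to 69109965, plus strand), not at its outer 5' end. Cry1 holds an E-box at 60 bases and a CACGTT variant at 79 bases before its start site. An E-box was found in 4 of the 13 windows, against 7.15% of 32851 windows of all genes, and both windows of Tef hold one. The D-box was found in 1 of the 13 (2.32% of all windows), the CACGTT variant in 2 (4.68%) and AGGTCA in 3 (16.3%). The cyclic AMP response element TGACGTCA, searched as well, was found in 1, that of Hlf (1.79% of all windows). Clock, which also passed the test on the values as deposited, holds 1 AGGTCA starting 119 bases before a start site inside its span. The window of Dbp held none of these letters. These matches are descriptions of sequence and were not tested for binding.

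Expression is given as normalised reads, which are gene counts divided by a size factor of the library. The libraries held 18813027 to 23774244 reads, and the members were covered by 171 to 3065 reads per library. Fold changes are on the log2(value + 1) scale, NTG over vehicle, and a gene was called when its adjusted p in limma-trend was under 0.05. Of the 10 genes, 4 rose and 2 fell, and 4 did not pass. Of all 17475 genes tested, 25.8% were called, 12.3% higher and 13.5% lower. The 3 NTG values lay entirely outside the 3 vehicle values for 7 of the 10 genes, against 39.7% of all genes. The median log2 fold change was 0.24 over the 10 genes and 0.00 over all genes. The 10 genes were chosen with earlier results of these data known, so an excess over all genes can follow from that choice. Here and below, the counts beside all genes are given as description only.

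**Figure D1:**
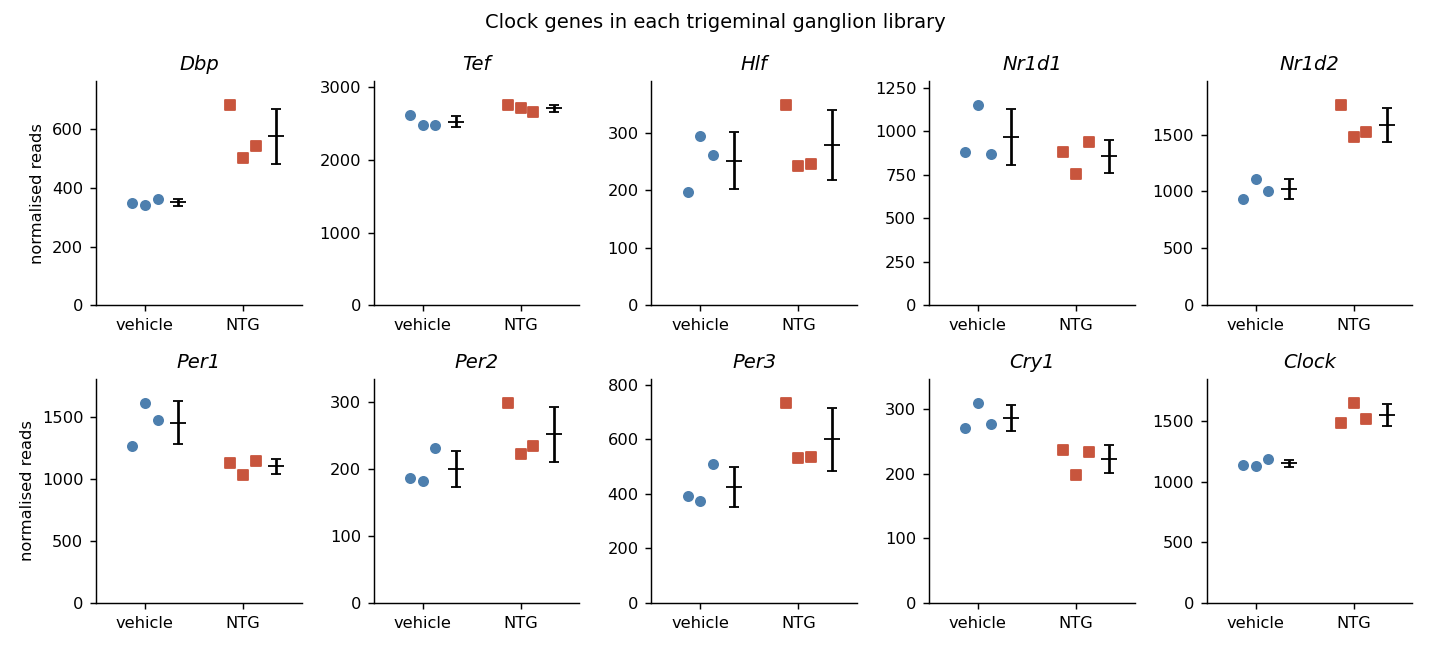
Normalised reads (vertical axis, from 0) of the 10 clock genes in the 3 vehicle libraries (blue circles) and the 3 NTG libraries (red squares), in replicate order from left to right, with the mean and SD in black beside each group. Dbp, Tef, Nr1d2, Per3 and Clock lie higher in all 3 NTG libraries and Per1 and Cry1 lower, though Tef was not called. Hlf, Nr1d1 and Per2 overlap between the groups.

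Among the 3 D-box activators, Dbp rose. It stood at 348, 341 and 364 normalised reads in the vehicle libraries and at 682, 500 and 543 in the NTG libraries. All NTG values were higher than all vehicle values, with NTG replicate 1 the highest. The mean went from 351 ± 11.7 to 575 ± 95.1 (SD, n = 3 each), a log2 fold change of 0.70 ± 0.11 (SE, limma adjusted p = 0.000102). Without NTG replicate 1 the log2 fold change was 0.57 (limma adjusted p = 0.00143). Dbp lies on chromosome 7 (45705100 to 45710203, plus strand, GRCm38) and overlaps Sphk2, a sphingosine kinase gene on the opposite strand, by 741 bases, of which 539 are exonic in both genes. The sources used here do not say how reads there were assigned. Sphk2 was listed at 3.43 times the reads of Dbp and moved the other way, from 1744 ± 67.9 to 1426 ± 52.3, with a log2 fold change of -0.29 ± 0.06 (limma adjusted p = 0.00222). Once the GC and length trends described below were removed, Sphk2 was not called (log2 fold change -0.02 ± 0.06, limma adjusted p = 0.88).

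Tef was the highest of the 3 by reads, with 2617, 2489 and 2479 normalised reads in vehicle and 2757, 2723 and 2657 in NTG. The groups did not overlap, but the difference was small and did not pass (log2 fold change 0.10 ± 0.06, 95% interval -0.02 to 0.22, limma adjusted p = 0.205). Hlf stood at 197, 295 and 262 in vehicle and at 349, 243 and 245 in NTG. These values overlap, and only NTG replicate 1 exceeded the vehicle libraries. The log2 fold change of Hlf was 0.15 ± 0.16 (95% interval -0.19 to 0.49, limma adjusted p = 0.545), and it was -0.02 without NTG replicate 1.

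The REV-ERB genes gave different values. Nr1d2, which encodes REV-ERB beta, stood at 936, 1111 and 1007 normalised reads in vehicle and at 1760, 1481 and 1522 in NTG, with no overlap. Its means were 1018 ± 87.8 and 1588 ± 151, and it rose by 0.64 ± 0.08 on the log2 scale (limma adjusted p = 1.4e-05). Nr1d1, which encodes REV-ERB alpha, stood at 879, 1152 and 868 in vehicle and at 880, 754 and 938 in NTG. The groups overlapped, and Nr1d1 did not pass (log2 fold change -0.17 ± 0.11, 95% interval -0.40 to 0.06, limma adjusted p = 0.289). Its 3' end overlaps Thra, the thyroid hormone receptor alpha gene on the opposite strand, by 1075 bases, of which 263 are exonic in both. Thra was listed at 7.5 times the reads of Nr1d1 and fell (log2 fold change -0.23 ± 0.05, limma adjusted p = 0.00293), a call that was lost with those trends removed (0.08 ± 0.04, limma adjusted p = 0.241).

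The 3 period genes, which encode repressors of CLOCK and BMAL1, did not move together. Per1 stood at 1267, 1614 and 1476 normalised reads in vehicle and at 1131, 1033 and 1144 in NTG. It was lower in all 3 NTG libraries and fell by 0.39 ± 0.08 on the log2 scale (limma adjusted p = 0.0014). Per3 stood at 391, 374 and 508 in vehicle and at 734, 533 and 536 in NTG, and rose (log2 fold change 0.50 ± 0.14, limma adjusted p = 0.0138). The groups of Per3 came close, with vehicle replicate 3 at 508 and NTG replicate 2 at 533. The rise of Per3 did not pass without vehicle replicate 1 (limma adjusted p = 0.0636), vehicle replicate 2 (0.078) or NTG replicate 1 (0.0612). Per2 stood at 186, 183 and 231 in vehicle and at 300, 223 and 235 in NTG, with vehicle replicate 3 above NTG replicate 2. It did not pass (log2 fold change 0.33 ± 0.14, limma adjusted p = 0.0983), and its log2 fold change was 0.20 without NTG replicate 1.

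Cry1, the partner of the PER proteins in repression, stood at 271, 309.8 and 278 normalised reads in vehicle and at 237, 197 and 233 in NTG. All NTG values were lower, and Cry1 fell by 0.36 ± 0.12 on the log2 scale (limma adjusted p = 0.0346). This did not pass without vehicle replicate 2 (limma adjusted p = 0.12), NTG replicate 1 (0.0553) or NTG replicate 2 (0.197). Clock, which encodes the activator that pairs with BMAL1, stood at 1135, 1127 and 1188 in vehicle and at 1480, 1651 and 1515 in NTG. It was higher in all 3 NTG libraries, with means of 1150.0 ± 32.8 and 1549 ± 90.3, and rose by 0.43 ± 0.07 on the log2 scale (limma adjusted p = 0.000122). NTG replicate 1 was the highest of the 6 libraries for Dbp, Tef, Hlf, Nr1d2, Per2 and Per3, and not for Clock. The spans of Per2 and Clock are each overlapped on the opposite strand by a predicted gene, Gm35591 and Gm7467, listed at 0.0791 and 0.00628 times their reads.

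The change of a gene moved with the base composition of its transcript in these libraries. In the decile of genes with the lowest GC content, which holds Clock, 41.6% rose and the median log2 fold change was 0.30. In the decile with the highest, which holds Dbp and Per1, 3 of 1628 genes rose, 853 fell and the median was -0.30. Dbp, at 61.6% GC, was 1 of those 3. Its log2 fold change exceeded that of 98.8% of the genes in its decile, while Per1, at 59.4% GC, exceeded 32.0% of them. Per3 exceeded 96.3% of the genes in its own decile, Per2 95.8%, Nr1d2 94.7%, Tef 80.6% and Clock 71.3%. Nr1d1 exceeded 56.8% and Hlf 47.5%, close to the middle of their deciles, and Cry1 exceeded 8.91%.

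**Figure D2:**
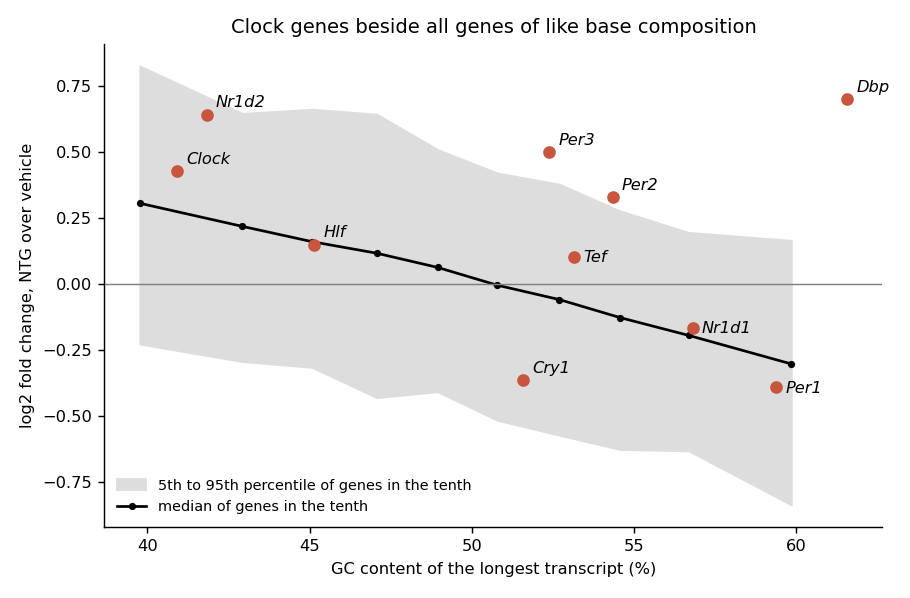
Log2 fold change, NTG over vehicle (vertical axis), against the GC content of the longest transcript in percent (horizontal axis) for the 10 clock genes (red), with the median (black line) and the 5th to 95th percentile (grey) of all genes in each decile of GC content. Dbp stands at 0.70 where the median is -0.30, Per2 and Per3 lie above the grey band of their deciles, and Per1, Nr1d1 and Hlf lie near the line.

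The fit was therefore repeated after smooth trends over GC content and transcript length had been taken out of every library. In that fit 10.4% of 16278 genes were called, 4.62% higher and 5.77% lower. Of the 10 clock genes 5 rose and 0 fell in limma, with 1 lower at an unadjusted p under 0.05 and 0 lower also with the replicate number as a block. The edgeR and DESeq2 tests, run without this removal, each called 2 lower. Dbp rose by 1.06 ± 0.11 on the log2 scale (limma adjusted p = 4.07e-06), Nr1d2 by 0.41 ± 0.08 (0.000912) and Per3 by 0.56 ± 0.15 (0.047). These 3 were called with the same sign in both fits. Tef (log2 fold change 0.20 ± 0.05, limma adjusted p = 0.0164) and Per2 (0.45 ± 0.14, 0.0478) passed after the removal and not on the values as deposited, where Per2 passed only without vehicle replicate 3 (0.0328). With the trends removed and single libraries left out, Per2 again passed only without vehicle replicate 3 and reached a limma adjusted p = 0.308 without NTG replicate 1, while Tef missed the threshold in 3 of 6 cases, up to 0.0845. Per3 missed it without vehicle replicate 1 (0.161), vehicle replicate 2 (0.144) or NTG replicate 1 (0.0547). The calls of Per1 (-0.10 ± 0.07, limma adjusted p = 0.409), Cry1 (-0.31 ± 0.12, 0.112) and Clock (0.15 ± 0.06, 0.133) were lost. Hlf (-0.01 ± 0.16) and Nr1d1 (0.05 ± 0.10) stayed short of the threshold with their signs turned.

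**Figure D3:**
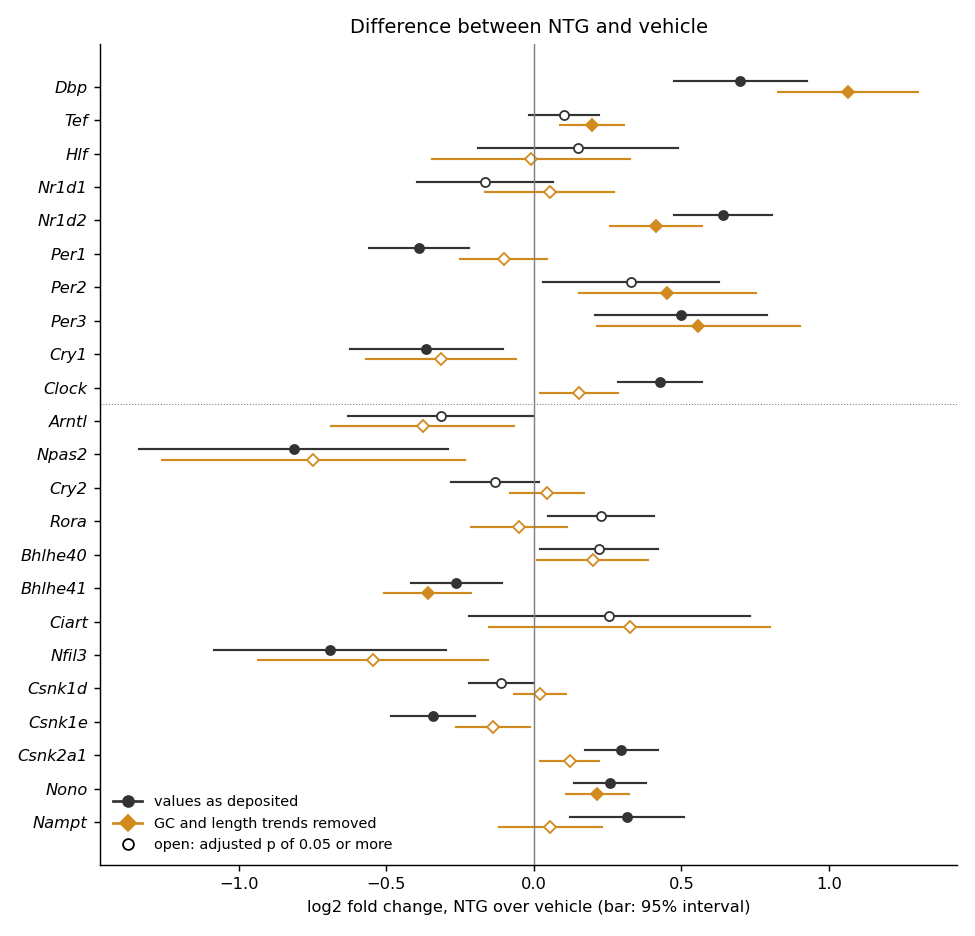
Log2 fold change, NTG over vehicle (horizontal axis), with its 95% interval, for the 10 clock genes and, under the dotted line, 13 further clock genes, from values as deposited (black circles) and after removal of GC and length trends (orange diamonds). Filled symbols have an adjusted p under 0.05. Of the 10 clock genes, Dbp, Nr1d2 and Per3 are filled and right of 0 in both fits. The black symbols of Npas2 and Nfil3 are filled at -0.81 and -0.69, and their orange symbols are open at -0.75 and -0.55.

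Ratios of related genes within a library do not depend on its size factor. The pairs were chosen with earlier results of these data known. Most set a gene that rose over one that fell or did not pass. Their separation therefore largely restates the values of the single genes, and no share over other gene pairs was computed. The ratio of Nr1d2 to Nr1d1 was 0.964 to 1.16 in vehicle and 1.62 to 2.0 in NTG, and that of Per3 to Per1 was 0.232 to 0.344 and 0.468 to 0.649. The ratio of Per2 to Per1 was 0.114 to 0.157 in vehicle and 0.205 to 0.265 in NTG. Dbp stood at 0.133 to 0.147 times Tef in vehicle and at 0.184 to 0.247 times Tef in NTG, and at 1.15 to 1.76 and 1.96 to 2.21 times Hlf. Against its antisense neighbour Sphk2, Dbp stood at 0.193 to 0.208 and 0.351 to 0.496. The groups did not overlap in any of these 6 ratios, and each had p = 0.1 in a two-sided exact permutation test, which 3 against 3 libraries cannot go below (0.117 after Benjamini-Hochberg adjustment over 7 ratios). The ratio of Nr1d1 to Thra overlapped between groups (0.114 to 0.155 and 0.120 to 0.149, exact permutation p = 0.8). The log2 difference of the Nr1d2 to Nr1d1 ratio went from 0.81 to 0.36 after GC and length trends were removed, that of Per3 to Per1 from 0.89 to 0.66, and that of Dbp to Tef from 0.60 to 0.87.

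**Figure D4:**
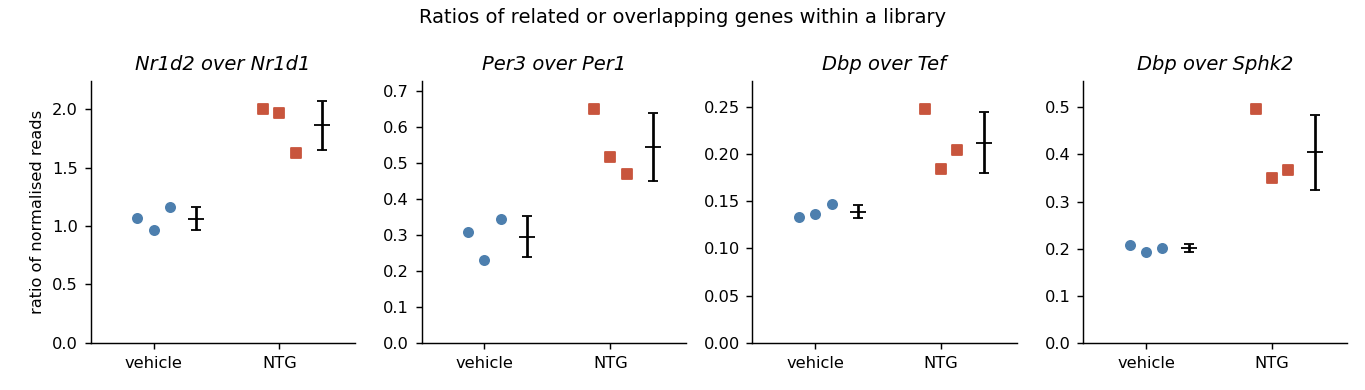
Ratio of normalised reads of 2 genes within each library (vertical axis, from 0) for 4 pairs, in vehicle (blue circles) and NTG (red squares), with mean and SD in black. In each pair the 3 NTG ratios lie above the 3 vehicle ratios, as for Nr1d2 over Nr1d1, at 1.62 to 2.0 against 0.964 to 1.16.

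Levels were compared between the 10 genes per kilobase of the longest annotated transcript. In vehicle Tef was the most abundant at 574 ± 17.6 normalised reads per kilobase, followed by Nr1d1 (355 ± 59.0), Per1 (311 ± 37.4), Nr1d2 (218 ± 18.8) and Dbp (191 ± 6.38). Clock (118 ± 3.36), Cry1 (94.6 ± 6.82), Per3 (70.7 ± 12.2), Hlf (44.6 ± 8.85) and Per2 (34.3 ± 4.62) followed. Among neighbours in this order, Nr1d1 and Per1 overlapped, as did Hlf and Per2. In NTG the order was Tef (616 ± 11.5), Nr1d2 (340 ± 32.3), Nr1d1 (315 ± 34.6), Dbp (313 ± 51.8), Per1 (236 ± 12.99) and Clock (159 ± 9.27), then Per3 (100.2 ± 19.2), Cry1 (73.5 ± 7.21), Hlf (49.5 ± 10.7) and Per2 (43.3 ± 7.07). There Nr1d2, Nr1d1 and Dbp overlapped in sequence, and Hlf again overlapped Per2. Per kilobase, Cry1 stood above Per3 in every vehicle library and below it in every NTG library. This order depends on the annotated lengths (3026 bases for Cry1 and 5999 for Per3). In normalised reads not divided by length, Per3 stood above Cry1 in every library of both groups.

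The other clock genes were taken from a list of 31 measured genes, of which 3 rose, 4 fell and 24 did not pass, shares near those of all genes. Among the activators, Npas2, a relative of Clock, stood at 104, 97.8 and 65.0 normalised reads in vehicle and at 36.7, 52.3 and 61.6 in NTG. The groups came close but did not overlap, and Npas2 fell (log2 fold change -0.81 ± 0.25, limma adjusted p = 0.0207). This did not pass without vehicle replicate 1 (limma adjusted p = 0.0733), vehicle replicate 2 (0.0831) or NTG replicate 1 (0.128). Arntl, the partner of Clock, stood at 190, 225 and 174 in vehicle and at 137, 162 and 173 in NTG. It did not pass (log2 fold change -0.31 ± 0.15, limma adjusted p = 0.136).

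Nfil3, the D-box repressor that competes with DBP, stood at 102, 133 and 129 normalised reads in vehicle and at 69.1, 77.9 and 76.3 in NTG. All NTG values were lower, and it fell (log2 fold change -0.69 ± 0.19, limma adjusted p = 0.00991). Bhlhe41, a repressor at E-boxes, fell by 0.26 ± 0.07 on the log2 scale, with means of 987 ± 22.6 and 823 ± 46.3 (limma adjusted p = 0.0121). Its relative Bhlhe40 had a log2 fold change of 0.22 ± 0.10 (adjusted p = 0.0986). The casein kinase gene Csnk1e, whose product phosphorylates PER proteins, fell (-0.34 ± 0.07, 0.00092), while Csnk1d did not pass (-0.11 ± 0.05, 0.128). The other 3 called genes rose: the casein kinase 2 subunit gene Csnk2a1 (0.30 ± 0.06, 0.000924), Nono, which encodes a protein of the PER complex (0.26 ± 0.06, 0.00275), and Nampt, a clock output in NAD synthesis (0.32 ± 0.09, 0.0156). Nampt did not pass without vehicle replicate 2 (limma adjusted p = 0.0891) or NTG replicate 2 (0.151), nor Bhlhe41 without NTG replicate 2 (0.0928).

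Cry2 (-0.13 ± 0.07), the ROR receptor genes Rora (0.23 ± 0.09) and Rorb (-0.09 ± 0.87) and the E-box repressor Ciart (0.26 ± 0.23) did not pass, with limma adjusted p of 0.191, 0.0581, 0.956 and 0.449. Rorb was at 1.73 to 18.1 normalised reads per library. After GC and length trends were removed, Bhlhe41 (-0.36, limma adjusted p = 0.00175) and Nono (0.22, 0.00765) were called again, and Gsk3b, a kinase that phosphorylates REV-ERB alpha, was called lower (-0.15, 0.016). On the values as deposited its log2 fold change was 0.0003 (limma adjusted p = 0.998), and with the trends removed it passed in 4 of 6 fits that left out a library, with a limma adjusted p of up to 0.0868. Gsk3b is named here because it was called in that fit, after its values were seen. The calls of Csnk1e (-0.14, limma adjusted p = 0.158), Csnk2a1 (0.12, 0.117) and Nampt (0.06, 0.743) were lost. Npas2 (-0.75, limma adjusted p = 0.0562), Nfil3 (-0.55, 0.0686) and Arntl (-0.38, 0.118) had negative log2 fold changes that did not pass.

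Per1 is also induced by neuronal activity and by glucocorticoids. Of 14 immediate early genes, 0 rose and 7 fell in limma, with 1 and 9 at an unadjusted p under 0.05 and 0 and 7 in both edgeR and DESeq2. With GC and length trends removed 3 of the 14 fell. Over all genes 13.5% fell before the removal and 5.77% after it. The summed level of the 14 was 414 to 477 CPM (counts scaled to library size) in vehicle and 343 to 361 CPM in NTG. Of 10 glucocorticoid-responsive genes, 0 rose and 3 fell in limma, edgeR and DESeq2 alike and at an unadjusted p under 0.05, and 2 fell with the trends removed. Their summed level was 947 to 988 CPM in vehicle and 829 to 873 CPM in NTG. The call of Per1 was itself lost with the trends removed (log2 fold change -0.10, limma adjusted p = 0.409). The part of these genes' inducers in the values of Per1 was not tested.

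In bulk tissue fewer cells of a type and less RNA per cell cannot be told apart. All 13 sensory neuron markers were detected in every library, at a summed 22181 to 23218 CPM in vehicle and 21559 to 22230.0 CPM in NTG, with 2 higher and 4 lower. Both edgeR and DESeq2 called 1 higher and 4 lower. With GC and length trends removed, 4 were higher and 1 lower. Over all genes 12.3% were higher and 13.5% lower before the removal, and 4.62% and 5.77% after it. The marker lists are short, so their counts are given as description only. The 10 satellite glia and Schwann cell markers summed to 15251 to 16643 CPM and 14510 to 15988 CPM, with 2 higher and 4 lower, and 0 higher and 1 lower with the trends removed. For these, edgeR and DESeq2 each called 2 higher and 3 lower. Skeletal muscle markers were at 13.6 to 21.8 CPM in vehicle and 6.98 to 8.05 CPM in NTG, and 7 of 12 fell (5 with the trends removed), with Tnnt3 and Tnnc2 at 0 in at least 1 library. Of these markers edgeR called 7 lower and DESeq2 only 3. Of 7 fibroblast and meningeal markers 2 fell (1678 to 1855 CPM against 1297 to 1625 CPM), and 1 fell with the trends removed. At an unadjusted p under 0.05 in limma 3 of the 7 were higher and 4 lower, and DESeq2 called 1 higher and 3 lower. Of 6 endothelial markers 1 rose and 1 fell (126 to 155 CPM against 141 to 150.2 CPM), with 0 called in limma after the removal, where 3 were higher and 0 lower at an unadjusted p under 0.05 (edgeR and DESeq2, run without it, called 1 each way). No macrophage marker of 6 was called by limma, edgeR or DESeq2 (71.0 to 75.9 CPM against 65.4 to 76.4 CPM), with 1 higher and 1 lower at an unadjusted p under 0.05. The part of these cell types in the clock gene values was not tested.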

How the data were processed

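Per the labels' protocols, polyadenylated RNA of trigeminal ganglia was captured with poly-T beads and sequenced in paired ends from strand-specific libraries. FastQC, HISAT2 and build GRCm38 are named in the submitters' processing notes. For counting, strand setting, annotation and normalization, no tool or version is given in the sources used here. The deposited table holds a signal per gene and library, gene counts that the authors divided by a size factor. Divided by the step of the lowest values (0.867 to 1.10 per library), 100% of values were whole within 0.01, so reads were recovered (18813027 to 23774244 per library). At this depth 3 reads are 0.126 to 0.160 CPM, a limit for counting error alone.

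The test was limma-trend (3.58.1, robust) on log2(value + 1) for genes that reached a value of 1 in 3 or more libraries, two-sided, with Benjamini-Hochberg adjustment over all 17475 genes. Alternatives were edgeR 4.0.16 and DESeq2 1.42.0 on recovered reads, other pseudocounts, filters and scalings, removal of smooth trends over GC content and log2 length (mgcv 1.9.3), a block for the replicate number, and omission of single libraries. GC content and length are of the longest GENCODE M21 transcript (16327 genes, 93.2%). Scripts were tested on simulated data. Counts of replicate libraries differed beyond sampling noise (chi-square of 4.10 to 7.99 per degree of freedom), so all were kept as separate samples. The named genes were the members, a fixed core of other clock genes, the other clock genes that were called, and genes overlapping a member. The members, gene lists and ratios were chosen with earlier results of these data known. Other software was R 4.3.3, numpy 2.4.6, pandas 2.3.3, Python 3.11.15 and matplotlib 3.10.9.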

Additional observations from a re-analysis of the deposited data

How the results depend on the processing

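With pseudocounts of 0.5 or 5, no filter, a minimum mean of 1 CPM, total-count or TMM scaling, edgeR or DESeq2, the members counted were 4 higher and 2 lower, as in the values reported. Among the named genes these settings turned only the sign of Rorb, which was never called (log2 fold change 0.0274 at a pseudocount of 5 and 0.31 in edgeR). Removal of GC and length trends left 1692 genes called, 0 of the members lower, and 1 of the other clock genes higher and 2 lower. It turned the sign of Hlf (-0.0090), Nr1d1 (0.0531), Cry2 (0.0444), Rora (-0.0506), Csnk1d (0.0208) and Thra (0.0778), none of which was called after it, and of Gsk3b (0.0003 before, -0.1479 after), which was called after it. The cause was not tested.

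Same-numbered libraries of the groups did not deviate together over all genes (correlations of deviations 0.00415, -0.033 and -0.025). A pairing with a small effect, or one limited to few genes, could not be seen this way. With the replicate block 5254 genes were called, against 4512 without it, and the members again gave 4 higher and 2 lower. With the replicate block and the trends removed, 2268 genes were called, 0 of the members lower and 1 of the other clock genes higher. The log2 fold changes, with those of the 7 genes above whose sign turned, equalled those without the block. This equality was fixed in advance, because each replicate number holds 1 library of each group.

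Leaving out single libraries, with and without the trends, gave 784 to 4670 genes called, 0 to 2 members lower, 2 to 5 members higher, and 1 to 5 lower and 0 to 5 higher among the other clock genes. The fewest genes were called without NTG replicate 2, with the trends (2945) and without them (784). Log2 fold changes that changed sign ranged from -0.18 to 0.27 for Hlf, -0.24 to 0.18 for Nr1d1, -0.19 to 0.11 for Cry2, -0.0932 to 0.29 for Rora, -1.25 to 0.43 for Rorb, -0.14 to 0.0435 for Csnk1d, -0.0321 to 0.40 for Nampt, -0.28 to 0.0902 for Thra, -0.1677 to 0.0237 for Gsk3b, -0.52 to 0.10 for Gm35591 and -0.0293 to 1.30 for Gm7467. Dbp ranged from 0.57 to 1.14 and Nr1d2 from 0.34 to 0.70, and both were called in every one of these 12 fits. Depth limits the precision for Rorb, Gm7467 and Gm35591, which had few reads per library.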
